A study of Mus musculus with 3 samples.

Results

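The 9 genes described here fall into 2 groups by role. Acta2, Tagln, Myl9, Cnn1, Tpm1 and Tpm2 encode parts of the contractile apparatus of smooth muscle cells and myofibroblasts, and Postn, Tnc and Thbs1 encode matricellular proteins, which are secreted into the matrix and change how cells hold on to it. They were chosen by name, with their levels in Stroma, Bloodvessel and Tumor1 cells already known, from the 36530 features of the count tables, 31049 of which matched a gene symbol. Every value below is therefore a description, with no test and no p-value. All 9 had at least 1 UMI (unique molecular identifier, a tag that counts 1 captured RNA molecule), but Cnn1 had only 8 UMIs over all 12670 cells.

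The data are single-cell RNA profiles of 3 melanomas from a mouse model: 1 untreated tumor, 1 that regressed on vemurafenib, an inhibitor of mutant BRAF, and 1 that progressed on vemurafenib. In the study's methods, the model carries a BrafLSL.V600E allele among those recombined by Tyr.CreER after 4-OH tamoxifen is put on the flank skin, and a further line adds a Rosa26LSL.tdTomato reporter. The background is C57BL/6 in the labels and C57BL/6J in the methods. By the study's text the regressing tumor had been on the drug for 12 days. The Tyr promoter directs the recombination to the melanocyte lineage, so the fibroblasts, vessel cells and leukocytes of these tumors are host cells without the recombined alleles by design. With 1 tumor per condition, treatment, animal and library cannot be told apart, and all intervals below are 95% intervals that cover counting error only.

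Clusters carry the names that the authors deposited. Stroma pools the clusters Stroma1 to Stroma10, with 2628 untreated, 1918 regressed and 3422 progressed cells. Bloodvessel holds 74, 48 and 28 cells, and Tumor1, a cluster of melanoma cells, holds 44, 61 and 156 cells, in the same order of tumors. The libraries held 22202192 (untreated), 12413268 (regressed) and 26948940 (progressed) UMIs, and the median cell held 4496, 2658 and 4566. Levels are given in CPM, the UMIs of a gene per 1000000 UMIs of the cells pooled. The regressed tumor, besides its lower depth, stood apart in RNA of other cell types: the 4 red cell markers together reached 1582 CPM in its Stroma cells, 1824 in its Bloodvessel cells and 1602 in its Tumor1 cells, against at most 50.1 in those cell groups of the other tumors. The 5 keratinocyte markers together reached 920 to 1077 CPM in the 3 cell groups of the regressed tumor, against 119 to 263 in the other tumors except for 714 in the progressed Tumor1 cells. The 5 immune markers had 794 CPM in the regressed Stroma cells, against 174 and 198 in the untreated and progressed ones. The part of this RNA in the values of the regressed tumor was not tested. No cell identifier was shared between libraries, and no doublet caller was run here.

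Smooth muscle alpha-actin (Acta2), transgelin (Tagln), the regulatory myosin light chain Myl9, calponin (Cnn1) and the tropomyosins form or decorate the actin filaments with which mural cells of vessels and wound fibroblasts pull. A fibroblast that takes up Acta2-containing stress fibres and lays down matrix is called a myofibroblast, and such cells are common in the stroma of many tumors. Their contractile genes are known targets of serum response factor (SRF) with its MRTF co-activators, which bind a sequence called the CArG box, and of TEAD factors, which bind the MCAT element. Periostin (Postn), tenascin C (Tnc) and thrombospondin 1 (Thbs1) are known from healing wounds and remodelling tissue, and Thbs1 is also made by monocytes and other myeloid cells.

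Both motifs were looked for in windows from 250 bases before to 50 bases after a start site listed for each gene (GRCm38.p6). Both strands were read, with the MCAT element spelled CATTCC. Start below means the start site of the window, which need not be the outer 5' end of the gene in RefSeq. That end is at 34255585 for Acta2 and at 67049672 for Tpm1, so both MCAT stretches lie inside the gene. For Myl9 it is at 156775408, after the CArG box. Windows were at hand for 7 of the 9 genes, and Tagln and Thbs1 were not among them. The stretches below are shown because they hold all the matches in the windows of these 7 genes, so that a reader can see which windows carry either letter pattern. A gene without a match here may carry the motif outside its window, and Tagln and Thbs1 were not read at all. The capitals mark the motif, and each stretch is written along the strand of its gene.
Acta2, MCAT reading GGAATG on this strand, chr19:34255502-34255531, minus strand, 146 bases before the start: gagcagaacagaGGAATGcagtggaagaga
Tpm1, MCAT reading GGAATG on this strand, chr9:67049252-67049281, minus strand, 56 bases before the start: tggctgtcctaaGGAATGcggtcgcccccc
Myl9, CArG box, chr2:156775293-156775322, plus strand, 161 bases before the start: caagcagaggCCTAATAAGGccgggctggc
The CArG box was in 1 of the 7 genes and in 535 of all 32851 promoter windows (1.63%). The MCAT element was in 2 of the 7 genes and in 4817 of all windows (14.7%). These matches describe the letters of the windows, and nothing in the data says whether a factor was bound there.

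The named clusters were checked against marker genes before the members were read. All 7 fibroblast markers were found in Stroma of each tumor, at 46611 (untreated), 40122 (regressed) and 46982 (progressed) CPM. All 7 endothelial markers were found in Bloodvessel, at 5036, 4528 and 4648 CPM. In Tumor1 the reporter and melanocyte markers together had 2697, 1523 and 4292 CPM, nearly all of it from the transgene sequence, and Mlana was at 0 in all 3 tumors. The label of a contractile program held only in part. Cnn1 had 2 UMIs in the untreated Stroma cells, 0 in the regressed ones and 2 in the progressed ones, and Myh11, the myosin heavy chain of smooth muscle, stood at 2.63, 1.56 and 1.25 CPM there, so 2 defining genes of mature smooth muscle were at or near 0 over the pooled Stroma cells.

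The 15 groups of leukocytes with at least 50 cells served as a rough gauge of background. Whether they made some of this RNA themselves was not tested, and Tpm1 is made by many cell types. These groups had 0 to 6.72 CPM of Tagln, 9.12 to 22.3 of Myl9 and 4.13 to 18.6 of Tpm2. Tpm1 ran from 35.5 to 129 and Postn from 23.7 to 57.7. Acta2 in these groups ran from 3.04 to 84.0 with a median of 14.6, and Tnc from 0 to 12.8. The top of the Acta2 range was set by the regressed Neutrophils alone (25 UMIs, 54.4 to 124), and the next leukocyte group was the regressed NK_T at 24.2. Thbs1 is a leukocyte gene as well, with 15.4 to 860 CPM, so these groups give no background for it. Values of the other 8 genes in the pooled Stroma, Bloodvessel or Tumor1 cells that lie inside these ranges are named as such below.

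**Figure D1:**
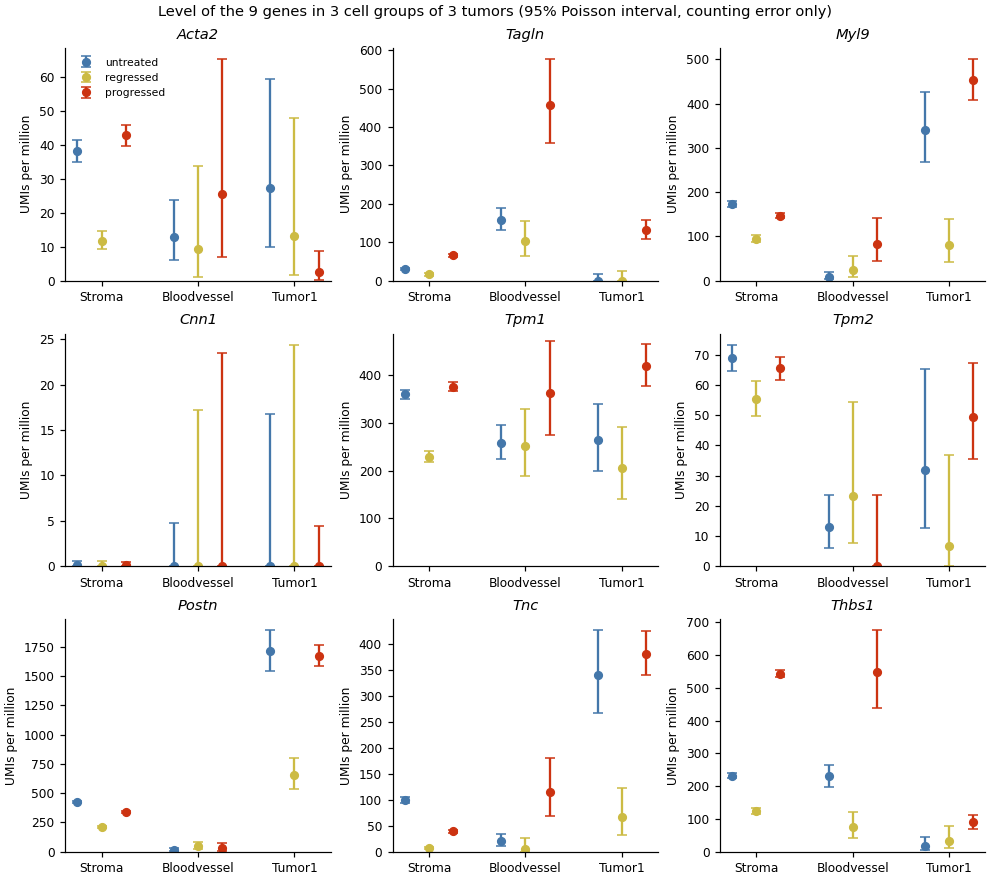
Level of each of the 9 genes in CPM (UMIs per 1000000; linear axis from 0, own scale per panel) in Stroma, Bloodvessel and Tumor1 cells of the untreated (blue), regressed (yellow) and progressed (red) tumor. Points are pooled values of 1 tumor and bars are 95% Poisson intervals for counting error only. In Stroma the regressed tumor was the lowest for all of the genes apart from Cnn1, which had too few UMIs to rank the tumors. Thbs1 was highest in the progressed Stroma and Bloodvessel cells and Postn highest in Tumor1.

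Across the Stroma cells, the regressed tumor had the lowest level of 8 of the 9 genes, and Cnn1 had too few UMIs to rank the tumors. The 3 tumors then differed gene by gene. Tnc and Acta2 were far lower in the regressed tumor, Tagln and Thbs1 were highest in the progressed tumor, and Tpm1, Tpm2 and Myl9 of the untreated and progressed tumors lay within 1.18-fold of each other. The 6 contractile genes summed to a log2 ratio of -0.72 (-0.78 to -0.66) between the regressed and the untreated Stroma cells and of 0.06 (0.02 to 0.10) between the progressed and the untreated ones. The 3 matricellular genes summed to -1.14 (-1.20 to -1.07) and 0.30 (0.26 to 0.33), the second of which was -0.45 without Thbs1, since Postn and Tnc were lower in the progressed tumor.

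Acta2, the actin isoform by which myofibroblasts are usually recognised, had 38.1 CPM in the untreated Stroma cells (34.9 to 41.4; 536 UMIs), 11.7 in the regressed ones (9.18 to 14.6; 75 UMIs) and 42.7 in the progressed ones (39.7 to 45.9; 751 UMIs). All 3 values lay inside the range of the leukocytes, the untreated and progressed ones only because of the regressed Neutrophils, and the regressed one below the leukocyte median. In the regressed Stroma cells 5 of the 9 mural markers were lower too, with a median log2 ratio of -1.01. Of all features 6.38% were lower by the rule given below, and the median log2 ratio of all features was 0.14. For Acta2 the log2 ratio to the untreated tumor was -1.71 (-2.07 to -1.35) in the regressed tumor, a 3.26-fold lower level, and 0.17 (0.00 to 0.33) in the progressed tumor. Few cells carried it: 4.83%, 2.61% and 5.96% of Stroma cells had an Acta2 UMI, and 1.31%, 0.808% and 2.06% when each cell was thinned to 1000 UMIs, which left out 29, 185 and 22 shallower cells.

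Tagln, which encodes an actin-bundling protein made early in smooth muscle differentiation, stood at 30.8 CPM in the untreated Stroma cells (28.0 to 33.9), 15.7 in the regressed ones (12.8 to 19.1) and 65.7 in the progressed ones (62.0 to 69.6). The progressed tumor was thus the highest, by a log2 ratio of 1.09 (0.93 to 1.25), or 2.13-fold, over the untreated tumor. The regressed tumor was lower by a log2 ratio of -0.97 (-1.30 to -0.66). The share of Stroma cells with a Tagln UMI was 5.44%, 3.28% and 11.5%, and after thinning 1.69%, 1.56% and 4.65%, so the higher level of the progressed tumor went with more cells that carried the transcript.

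Myl9, the light chain that myosin light chain kinase phosphorylates to start contraction, stood at 172 CPM in untreated, 94.8 in regressed and 146 in progressed Stroma cells. Its log2 ratios to the untreated tumor were -0.86 (-0.99 to -0.73) and -0.23 (-0.31 to -0.15). Unlike Acta2 and Tagln it was found broadly, in 39.8%, 22.6% and 38.8% of cells. Tpm1, a tropomyosin that many cell types make, stood at 359, 229 and 376 CPM and in 68.2%, 45.1% and 68.0% of cells. Its log2 ratios were -0.65 (-0.73 to -0.56) and 0.06 (0.01 to 0.12). Tpm2, the second tropomyosin of smooth muscle, differed least between the regressed and the untreated tumor among the contractile genes other than Cnn1. Its CPM were 68.9, 55.3 and 65.5, and its log2 ratios -0.32 (-0.50 to -0.14) and -0.07 (-0.20 to 0.05).

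Postn, the matrix protein that binds collagen and integrins, had 423 CPM in the untreated Stroma cells (412 to 434), 211 in the regressed ones (200 to 223) and 343 in the progressed ones (334 to 352). Its log2 ratios were -1.0 (-1.09 to -0.92) and -0.30 (-0.36 to -0.25), so it lay just past 2-fold in the regressed tumor, where Tagln lay just short of it. Tnc, a large glycoprotein that appears in stroma under repair, showed the widest range of the 9 genes in Stroma, with 99.6 CPM untreated (94.4 to 105), 7.32 regressed (5.38 to 9.73) and 39.7 progressed (36.8 to 42.7). The regressed tumor was 13.6-fold lower than the untreated one, at a log2 ratio of -3.77 (-4.22 to -3.35) and inside the leukocyte range, and the progressed tumor 2.51-fold lower, at -1.33 (-1.46 to -1.20). Thbs1, an activator of latent transforming growth factor beta, went the other way in the progressed tumor. It had 232 CPM untreated (224 to 240), 125 regressed (116 to 133) and 543 progressed (532 to 554), with log2 ratios of -0.90 (-1.01 to -0.78) and 1.23 (1.17 to 1.29). After thinning, 17.2%, 11.5% and 30.9% of Stroma cells had a Thbs1 UMI, against 44.4%, 29.2% and 59.8% without thinning.

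A gene is counted below as higher or lower where the 2 tumors differed by at least 2-fold, the interval of the log2 ratio held no 0 and the 2 tumors had at least 20 UMIs together. In Stroma 8 of the 9 genes had enough UMIs. Between the regressed and the untreated tumor 3 of them were lower (Acta2, Postn and Tnc) and 0 higher, where 6.38% of the 14791 features with enough UMIs were lower and 13.2% higher. Between the progressed and the untreated tumor 2 were higher (Tagln and Thbs1) and 1 lower (Tnc), where 3.23% of features were higher and 5.26% lower. Between the progressed and the regressed tumor 4 were higher (Acta2, Tagln, Tnc and Thbs1) and 0 lower, where 4.29% of features were higher and 15.4% lower. The genes were chosen on these contrasts, so nothing is read from the counts. The median log2 ratio of all features was 0.14, -0.06 and -0.20 in these 3 comparisons, and TMM scaling (trimmed mean of M-values) would shift every Stroma log2 ratio by -0.25, 0.06 and 0.31. Under it, Tagln, Myl9 and Thbs1 would also count as lower in the regressed tumor, which makes 6 of 8, and 6 of 8 would be higher in the progressed than in the regressed tumor. The 3 comparisons share their tumors, so their ratios are given side by side and not set against each other.

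**Figure D2:**
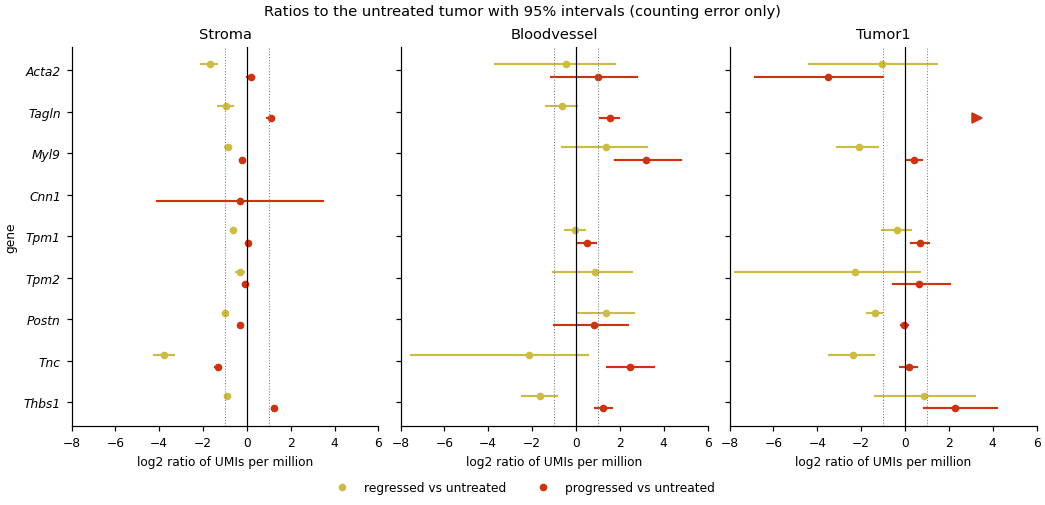
Log2 ratio of CPM to the untreated tumor for each gene in Stroma, Bloodvessel and Tumor1, regressed in yellow and progressed in red. Lines are exact 95% intervals for counting error, cut at -8, and dotted lines mark 2-fold. The arrowhead for Tagln in Tumor1 is the ratio to a floor of 3 UMIs, since the untreated cells had 0 UMIs. Ratios against a cell group with 0 UMIs are otherwise left out. The Stroma intervals are narrow but for Cnn1 (2 UMIs in each of the untreated and progressed tumors; -0.32, -4.11 to 3.46), whereas those of Acta2, Tpm2 and Tnc in Bloodvessel and Tumor1 are often wider than 2-fold.

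The regressed tumor had few cells in the Stroma clusters of the other tumors, which had 7 clusters in common with at least 10 cells in each. The members were unevenly spread over the clusters. In the regressed tumor Stroma10 held 80.1% of Stroma cells and Stroma9 another 16.2%, while Stroma1 and Stroma2, which made up 61.5% of the untreated Stroma cells, held 1 cell each there. Clusters with at least 10 cells in all 3 tumors were Stroma3, Stroma4, Stroma6 and Stroma8, with only 63 cells of the regressed tumor. Weighting these 4 clusters equally, the contractile sum of the regressed tumor differed from the untreated one by a log2 ratio of 0.013 in place of -0.72, and the matricellular sum by -0.56 in place of -1.14.

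Stroma6 and Stroma3 carried most of the Acta2 in the untreated and progressed tumors, while in the regressed tumor Stroma10 held 36.0% of it, Stroma9 34.7%, Stroma6 25.3% and Stroma3 4.0%. Stroma6 was 3.16% of the untreated Stroma cells but held 55.4% of their Acta2 UMIs and 35.9% of their Tagln UMIs. Stroma3, with 4.57% of these cells, added 18.3% of the Acta2, 27.6% of the Tagln and 24.4% of the Postn UMIs. In the progressed tumor Stroma6 was the largest cluster, with 36.7% of the Stroma cells, and held 59.8% of the Acta2 UMIs. Its Acta2 level per UMI was 7.94-fold lower than in the untreated Stroma6 cells. The levels were 627 CPM in 83 untreated cells, 458 in 13 regressed cells and 78.9 in 1255 progressed cells. Among the leukocyte groups only the regressed Neutrophils, at 84.0, were above the last value. Of the 297 untreated Acta2 UMIs of Stroma6, 1 cell held 111, and without the top cell of each tumor the levels were 403 and 68.7 CPM and the log2 ratio of the progressed to the untreated cells -2.55 (-2.81 to -2.29).

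Other members also differed between the tumors in this cluster. In Stroma6, Tagln had 329, 217 and 64.8 CPM and Myl9 had 606, 771 and 169, in the untreated, regressed and progressed tumor. Of the 156 untreated Tagln UMIs, 1 cell held 76, and without the top cell of each tumor Tagln was at 173 CPM untreated and 60.1 progressed. Postn there had 1443, 410 and 483 CPM. Tpm1 and Tnc did not pass the 2-fold rule between the progressed and untreated Stroma6 cells, with log2 ratios of -0.70 (-0.88 to -0.51) and -0.30 (-0.84 to 0.30). Thbs1 ran against the others, with 190 CPM in the untreated Stroma6 cells (90 UMIs), 24.1 in the regressed ones (1 UMI) and 758 in the progressed ones (4313 UMIs). The progressed Stroma6 cells were 3.99-fold above the untreated ones for Thbs1, at a log2 ratio of 2.0 (1.70 to 2.31), while Acta2 stood at -2.99 (-3.20 to -2.77).

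Stroma3 behaved differently. In its 120 untreated, 12 regressed and 88 progressed cells Postn was high in every tumor, at 2152, 2787 and 1840 CPM, the 2 highest group values of this gene among groups of at least 50 cells being those of the untreated and progressed Stroma3 cells. Acta2 was higher in its progressed than in its untreated cells, with 145, 81.2 and 343 CPM and a log2 ratio of 1.24 (0.88 to 1.61), or 1.06 (0.65 to 1.49) without the top Acta2 cell of each tumor. Tagln there had 178, 325 and 520 CPM, with a log2 ratio of 1.55 (1.24 to 1.87). Tnc was at 215, 27.1 and 586 CPM, but the progressed value rests on 1 cell, which held 265 of the 323 UMIs, and the regressed one on 1 UMI. Without the top Tnc cell of each tumor the untreated Stroma3 cells had 153 CPM and the progressed ones 110, and the log2 ratio was -0.47 (-0.96 to 0.01) in place of 1.45 (1.16 to 1.74). With that cell, Stroma3 held 46.3% of the progressed Stroma Tnc UMIs in 2.57% of the cells.

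Members were also found in the other Stroma clusters. Stroma1, found almost only in the untreated tumor, held 63.5% of the untreated Stroma Tnc at 302 CPM (282 to 322). Stroma2, likewise an untreated cluster, held 58.2% of the untreated Stroma Myl9, at 240 CPM against 606 in the untreated Stroma6. In Stroma4, with 599 untreated and 826 progressed cells, Tagln was 12.4 and 99.5 CPM, an 8.0-fold higher level in the progressed tumor at a log2 ratio of 3.0 (2.48 to 3.57). Stroma5 was rich in Thbs1 in both tumors where it occurred, with 436 untreated and 590 progressed. Stroma7, a cluster of the progressed tumor, had the lowest Postn of the large Stroma clusters, 28.6 CPM, inside the leukocyte range. In the regressed tumor Acta2 was 5.56 CPM in Stroma10 and 18.8 in Stroma9, and Tnc was 6.79 and 7.96, all 4 inside the leukocyte range.

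**Figure D3:**
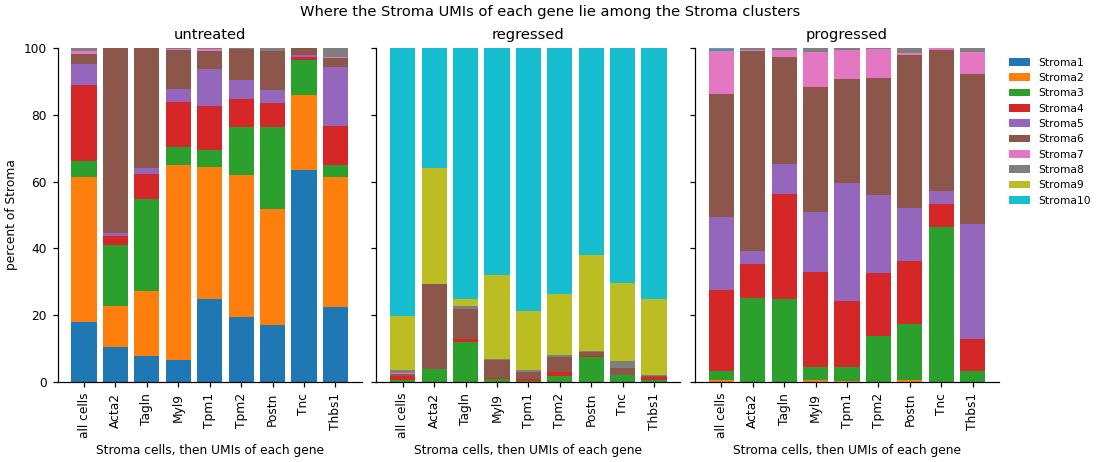
Percent of the Stroma cells (left bar of each panel) and of the Stroma UMIs of each gene that lie in each of the 10 Stroma clusters, for the untreated, regressed and progressed tumor. Cnn1 is left out, having at most 2 UMIs per tumor. Stroma6 (brown) takes 55.4% of the untreated Acta2 UMIs with 3.16% of the cells, Stroma1 (dark blue) 63.5% of the untreated Tnc UMIs, and Stroma10 (light blue) most of every gene but Acta2 in the regressed tumor.

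Within the clusters, Acta2 came from very few cells. In the untreated tumor 5 of 2628 Stroma cells held 50% of the Acta2 UMIs, and 1 cell held 111 of the 536. In the regressed and progressed tumors 13 and 14 cells held 50%. Tagln was also concentrated, with 12, 16 and 55 cells for 50% of the UMIs, while Myl9 took 209, 129 and 303 cells and Tpm1 363, 237 and 504. Tnc in the progressed tumor was uneven too: 1 Stroma cell with 25827 UMIs in all held 265 of the 698 Tnc UMIs, and without the top cell of each tumor the log2 ratio of Tnc to the untreated tumor was -1.89 in place of -1.33.

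The untreated cell with the most Acta2 carried 12733 UMIs, among them 76 of Tagln, 55 of Myl9, 13 of Rgs5 and 75 of the other 8 mural markers. Rgs5 encodes a regulator of G protein signalling and is a marker of pericytes, the mural cells of small vessels. The Stroma cells were therefore split by whether they had an Rgs5 UMI, a split made after the values had been seen. It found 56 untreated, 42 regressed and 52 progressed cells, which were 2.13%, 2.19% and 1.52% of Stroma cells. These cells were deeper than the rest, with medians of 7055.5, 4573.5 and 8068.5 UMIs against 4611, 3105.5 and 4326, and held 61.8%, 26.7% and 30.6% of the Stroma Acta2 and 36.2%, 8.91% and 8.74% of the Tagln. Of Postn and Thbs1 they held 2.80% to 4.23%, near their 2.49% to 3.16% of all UMIs. Most of their Acta2 lay in 13 Stroma6 cells in each of the untreated and progressed tumors, with 279 of 331 and 225 of 230 UMIs. Those Stroma6 cells also held 604 of the 849 untreated and 351 of the 494 progressed UMIs of the other 8 mural markers. The cells with an Rgs5 UMI are thus not all alike, and they are not taken here as pericytes.

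Without the cells with an Rgs5 UMI the gaps between the tumors differed for Acta2. Its level was then 15.04 CPM in the untreated Stroma cells, 8.83 in the regressed ones and 30.4 in the progressed ones, so that the progressed tumor was above the untreated one by a log2 ratio of 1.01 (0.78 to 1.25) in place of 0.17, and the regressed tumor below it by -0.77 (-1.23 to -0.33) in place of -1.71. Both the untreated and the regressed value then lay near the leukocyte median of 14.6 or below it. Tagln was at 20.3, 14.8 and 61.5 CPM, and its log2 ratios were -0.46 (-0.82 to -0.12) and 1.60 (1.41 to 1.79). For Thbs1 the progressed to untreated ratio stayed at 1.23. Of Tnc the Rgs5 cells held 18.3%, 0% and 1.43%, and without them its log2 ratios were -3.48 (-3.93 to -3.06) in the regressed and -1.07 (-1.21 to -0.93) in the progressed tumor.

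The same split was made within Stroma6. It held 13 cells with an Rgs5 UMI in the untreated tumor and 13 in the progressed tumor, against 70 and 1242 without. In the cells with Rgs5, Acta2 was 2980 CPM untreated and 2979 progressed, a log2 ratio of 0.00 (-0.26 to 0.26). In the cells without Rgs5 it was 47.3 and 39.9, a log2 ratio of -0.25 (-0.94 to 0.53). Tagln went otherwise: it was 1581 and 1072 CPM in the cells with Rgs5, a log2 ratio of -0.56 (-0.97 to -0.16), and 21.0 and 51.3 in those without, a log2 ratio of 1.29 (0.29 to 2.51) from 8 untreated UMIs. Myl9 was 2318 and 1973 CPM in the cells with Rgs5, a log2 ratio of -0.23 (-0.54 to 0.07). In those without it was 184 and 145, a log2 ratio of -0.35 (-0.70 to 0.03). The intervals of Tpm1 and Tpm2 also held 0 on both sides of the split. The Rgs5 cells of this cluster had 6452 and 4647 CPM of the other 8 mural markers, against 923 and 1114 in the cells without Rgs5. They had 18651 and 25936 of the fibroblast markers, against 58090 and 52351. Smooth muscle myosin Myh11 was at 310 and 199 CPM in them, against 0 and 1.25 in the others.

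Postn and Thbs1 differed between the tumors in the same direction in both kinds of cell. In Stroma6 Postn was lower in the progressed tumor both with an Rgs5 UMI (1528 untreated, 569 progressed; log2 ratio -1.42, -1.95 to -0.92) and without one (1422 and 482; -1.56, -1.70 to -1.43). Thbs1 was higher in the progressed tumor both with Rgs5 (203 and 1165; 2.52, 1.79 to 3.32) and without (187 and 752; 2.01, 1.67 to 2.37). Tnc of Stroma6 had log2 ratios of -0.43 (-2.17 to 1.18) with Rgs5 and -0.04 (-0.70 to 0.69) without, whereas over all Stroma cells with Rgs5 it was -4.66 (-5.74 to -3.76). In Stroma3 the cells with Acta2 or Tagln held at most 1 Rgs5 UMI per tumor. Of the 811 UMIs of the other 8 mural markers in its untreated cells without Rgs5, 365 were of Pdgfrb, which fibroblasts also make, and 321 of Ndufa4l2, while Kcnj8, Abcc9 and Higd1b had 2, 1 and 1 there and 0 in the progressed ones.

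**Figure D4:**
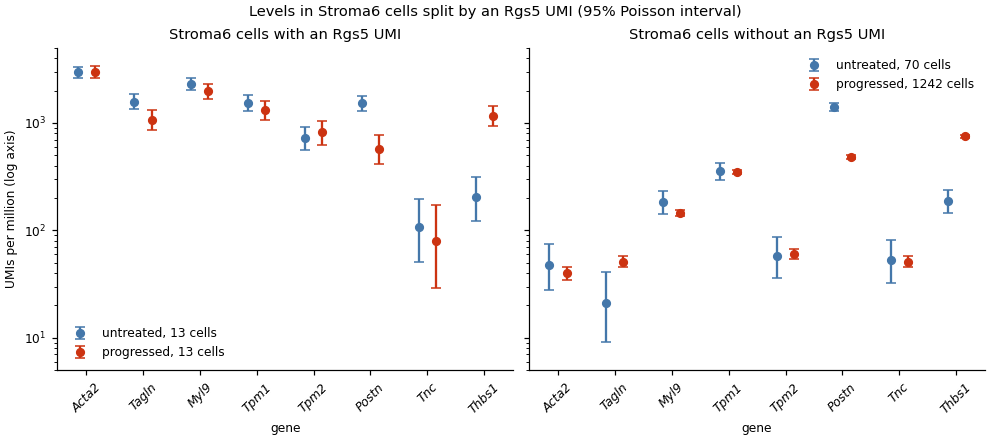
Levels of 8 of the genes in Stroma6 cells with (left) and without (right) an Rgs5 UMI in the untreated (blue) and progressed (red) tumor, in CPM on a log axis with 95% Poisson intervals. Acta2 sat at about 2980 in both tumors on the left and at 47.3 and 39.9 on the right, whereas Thbs1 was higher and Postn lower in the progressed tumor in both panels.

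Bloodvessel cells, which line the vessels, had little of most contractile genes but carried Tagln. Tagln stood at 158 CPM in the untreated Bloodvessel cells (131 to 188; 123 UMIs), 103 in the regressed ones (64.3 to 155; 22 UMIs) and 458 in the progressed ones (359 to 577; 72 UMIs). It was above the Stroma value of the same tumor in all 3 tumors. Rgs5 was at 0 in the untreated and progressed Bloodvessel cells, and in cells with a UMI of Pecam1, an endothelial adhesion molecule, Tagln was 159, 107 and 470 CPM, so it was found in cells that also carried an endothelial transcript. In the regressed tumor 2 Bloodvessel cells had Rgs5, and without them Tagln was at 84.9 CPM. The mural markers together were at 409, 569 and 159 CPM and the fibroblast markers at 1339, 4347 and 4756, lowest in the untreated tumor. Their part in these values was not tested.

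The other contractile genes of Bloodvessel were sparse. Acta2 had 10, 2 and 4 UMIs, Tpm2 had 10, 5 and 0, and Cnn1 had 0, which allows up to 3.85, 14.0 and 19.1 CPM (3 UMIs over each group). The Acta2 values lay inside the leukocyte range, as did Tpm2 in the untreated tumor (12.8 CPM). Myl9 had 8.99 CPM untreated (7 UMIs), 23.3 regressed (5 UMIs) and 82.8 progressed (13 UMIs). The untreated value lay just below the leukocyte range and the other values above it, though the interval of the regressed one (7.57 to 54.4) reached into it. Tpm1 was at 258, 252 and 363 CPM, and its log2 ratios were -0.03 (-0.50 to 0.40) in the regressed and 0.49 (0.04 to 0.92) in the progressed tumor.

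Of the matricellular genes Thbs1 was found in these cells in every tumor, at 230 CPM untreated (197 to 266), 74.6 regressed (42.7 to 121) and 548 progressed (438 to 676). Tnc had 20.5, 4.66 and 115 CPM from 16, 1 and 18 UMIs, the regressed value being inside the leukocyte range. Postn, at 18.0, 46.6 and 31.8 CPM, lay inside or below the leukocyte range in every tumor. By the rule given above, comparing regressed with untreated cells, 1 of the 4 genes with enough UMIs was higher (Postn, at a log2 ratio of 1.38, 0.04 to 2.65) and 1 lower (Thbs1, at -1.62, -2.46 to -0.88), where 11.7% of features were higher and 6.05% lower. Under TMM scaling the Postn ratio was 1.18 and its interval held 0 (-0.15 to 2.45). In the progressed against the untreated tumor 4 of 5 genes were higher (Tagln, Myl9, Tnc and Thbs1) and 0 lower, where 6.08% of features were higher and 4.09% lower. Against the regressed tumor 2 of 3 were higher (Tagln and Thbs1) and 0 lower, where 7.2% of features were higher and 8.7% lower. TMM scaling shifts the Bloodvessel log2 ratios by -0.20, -0.13 and 0.06.

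These progressed values rest on 28 cells, and on 2 of them above all. The deepest of the 28, with 21219 UMIs against a median of 4089.5, held 60 of the 86 Thbs1 UMIs and 14 of the 18 Tnc UMIs, beside 13 UMIs of Pecam1 and 47 of the fibroblast markers. Another, with 12985 UMIs, held 38 of the 72 Tagln UMIs and 9 of the 13 Myl9 UMIs, also beside 13 of Pecam1. Without the cell with the most UMIs of the gene in each tumor, the log2 ratio of the progressed to the untreated tumor was -0.17 (-0.82 to 0.43) for Thbs1 in place of 1.25, 1.02 for Tagln in place of 1.54, 1.81 for Myl9 in place of 3.20 and 1.17 (-0.96 to 2.96) for Tnc in place of 2.48. Thbs1 thereby changed its direction.

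In Tumor1, the melanoma cells, Postn and Tnc were above their Stroma levels in every tumor, Thbs1 was below, and Tagln had UMIs in the progressed tumor alone (0 UMIs allow up to 13.6 CPM in the untreated and 19.9 in the regressed cells). Postn reached 1709 CPM in the untreated Tumor1 cells (1541 to 1890), 655 in the regressed ones (533 to 798) and 1671 in the progressed ones (1584 to 1761), each above the Stroma value of the same tumor. It was found in 88.6%, 54.1% and 84.6% of cells, and after thinning to 1000 UMIs in 58.5%, 53.3% and 67.5%. Tnc had 340, 66.2 and 380 CPM. Thbs1 had 18.1, 33.1 and 89.3 CPM from 4, 5 and 74 UMIs.

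The Tumor1 cells carried 5000, 7031 and 5668 CPM of the fibroblast markers. Stroma had 40122 or more. The 9 mural markers together were at 852, 1225 and 1289 CPM in Tumor1, most of it from Mcam (544, 675 and 951), a cell adhesion molecule of melanoma cells as well as of mural cells, and Cspg4 (249, 477 and 249.9), a proteoglycan likewise made by both. The part of these cell types in the Tumor1 values was not tested. The whole endothelial list was at 18.1, 26.5 and 7.24 CPM, with Pecam1 at 0 in all 3 tumors, and Rgs5 was at 0 in the untreated and regressed Tumor1 cells.

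Among the contractile genes of Tumor1, Myl9 was high in the untreated and progressed tumors, with 340 (267 to 426) and 453 (408 to 501) CPM, and 79.4 (41.1 to 139) in the regressed one. Tpm1 had 263, 205 and 419 CPM, and Tpm2 31.7, 6.62 and 49.5, the regressed value being inside the leukocyte range. Acta2 had 6, 2 and 2 UMIs, inside or below the leukocyte range. Tagln had 0 UMIs in the 44 untreated cells and in the 61 regressed cells, and 109 UMIs, or 132 CPM (108 to 159), in the 156 progressed cells. Set against a floor of 3 UMIs over the untreated group, the progressed level was 9.68-fold higher, and against the same floor over the regressed group 6.63-fold higher. Both values leave out the counting error of the progressed level.

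The Tagln of the progressed Tumor1 cells lay in 28 cells, of which 4 held 50% of the UMIs. These 28 cells were deeper than the other 128, with medians of 6272.5 and 4278.5 UMIs. They had 957 CPM of Myl9 against 308 in the other 128 cells, 643 against 354 of Tpm1, 97.3 against 35.8 of Tpm2, 1962 against 1587 of Postn and 470 against 354 of Tnc. The transgene sequence tWPRE was at 4740 and 4123 CPM in the 2 sets of cells, and Acta2 and Rgs5 were at 0 in the cells with Tagln. The 9 mural markers together were at 1194 CPM in the cells with Tagln and 1317 in the others, 178 of the 221 UMIs of the former being of Mcam. Pooled over these 28 cells, Tagln thus went with higher levels of Myl9 and the tropomyosins and with the tumor cell transgene. The cell with the most Tagln, 29 of the 109 UMIs, held 2 of Myl9, 12 of Tpm1 and 0 of Tpm2. Acta2 had only 2 UMIs in all 156 progressed Tumor1 cells, so its absence does not set the 28 cells apart.

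By the same rule, 3 of 4 genes with enough UMIs in regressed and untreated Tumor1 cells were lower in the regressed ones (Myl9, Postn and Tnc) and 0 higher, where 9.46% of features were lower and 9.67% higher. Their log2 ratios were -2.10 (-3.11 to -1.21), -1.38 (-1.72 to -1.06) and -2.36 (-3.48 to -1.40). In the progressed against the untreated cells 2 of 7 were higher and 0 lower, where 5.41% of features were higher and 4.3% lower. They were Tagln, and Thbs1 at 2.30 (0.88 to 4.21). Postn and Tnc differed there by only -0.03 (-0.20 to 0.14) and 0.16 (-0.21 to 0.54). Against the regressed cells all 7 were higher in the progressed ones, from 1.03 (0.50 to 1.61) for Tpm1 to 2.90 (0.34 to 8.24) for Tpm2, where 6.91% of features were higher and 8.98% lower. The Tpm2 ratio rests on 1 regressed UMI. After thinning, 0 of 45 regressed and 4 of 151 progressed cells had a Tpm2 UMI. The value of -1.33 found there is set against the floor of 3 UMIs and gives no direction. TMM scaling shifts the Tumor1 log2 ratios by -0.13, 0.11 and 0.24.

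Outside these 3 cell groups the members were found in tumor, myeloid and unnamed clusters. The cluster named Tumor2, nearly all of it from the regressed tumor, had 524 CPM of Postn and 173 of Tnc in 349 cells with a median of only 768 UMIs. Thbs1 was highest of all groups in the monocyte cluster Monocytes1 of the untreated tumor, at 860 CPM (807 to 916), next to the regressed one at 807 (747 to 871), the 2 intervals meeting, and it was 394 in the 53 progressed Monocytes1 cells. Neutrophils had 298 untreated and 538 regressed. Undefined1, a cluster without a cell type name, had 690 CPM of Postn untreated, 539 regressed and 327 progressed, 55.3, 14.5 and 39.5 of Tnc, and 20.5, 22.6 and 70.0 of Acta2. Tpm2 had its highest group value in the progressed Undefined1 cells, with 249.8, 131 and 343 CPM in the 3 tumors. Undefined2 was similar in the untreated and regressed tumors, at 241 and 122. In the progressed tumor it was lower, at 192 (173 to 211, against 314 to 373 in Undefined1).

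The order of levels over the 41 combinations of cluster and tumor with at least 50 cells set Acta2 highest in the untreated Stroma6 (627), then the progressed Stroma3 (343) and the untreated Stroma3 (145), the intervals of these 3 standing apart. Tagln ran from the progressed Stroma3 (520) over the untreated Stroma6 (329) to the untreated Stroma3 (178), the untreated Bloodvessel (158) and the progressed Tumor1 (132), the last 3 with intervals that met their neighbours. Myl9 ran from the untreated Stroma6 (606) over the progressed Tumor1 (453) to the untreated Stroma2 (240). Postn ran from the untreated Stroma3 (2152) over the progressed Stroma3 (1840) to the progressed Tumor1 (1671), these last intervals meeting. Tnc ran from the progressed Stroma3 (586) over the progressed Tumor1 (380) to the untreated Stroma1 (302), again with intervals that stood apart, but the first of these was 110 without 1 cell. Levels are compared within a gene only, since the counts come from the 3' ends of transcripts.

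**Figure D5:**
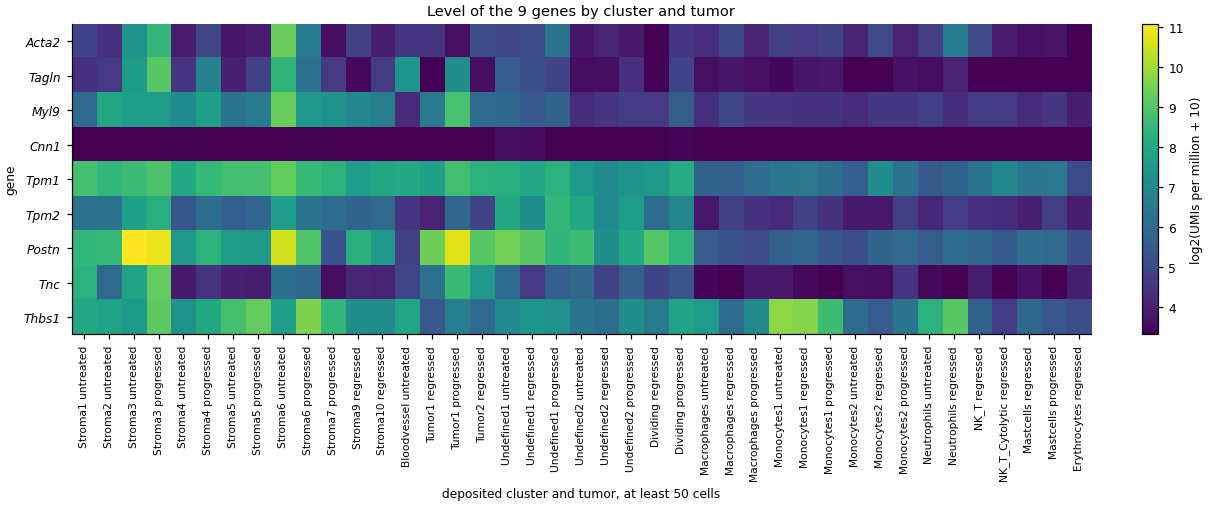
Level of the 9 genes as log2(CPM + 10) in deposited clusters with at least 50 cells in a tumor, 1 column per cluster and tumor. Postn is brightest in Stroma3 and the progressed Tumor1, Acta2 in the untreated Stroma6 and the progressed Stroma3, and Thbs1 in Monocytes1 and the progressed Stroma6, while Cnn1 is dark throughout.

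Over those 41 combinations, on the log2(CPM + 10) scale, Pearson's r was 0.83 between Postn and Tnc, 0.80 between Myl9 and Tpm1, and 0.66 between Acta2 and Tagln. Thbs1 was near 0 with Tnc, at 0.08. The points share 3 libraries and differ in depth, so these values only describe them. The features outside the 9 genes whose pattern was most like the mean of the contractile genes were Tgfb3 (r = 0.87), Angptl2 (0.85), Col12a1 (0.85), Ccn2 (0.85) and Insyn1 (0.84). Most like the mean of the matricellular genes were Col12a1 (0.90), Angptl2 (0.85), Dclk1 (0.84), Fstl3 (0.82) and Ak1 (0.82).

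Other genes of the same pathways were taken by list. Of 10 further smooth muscle contractile genes, 9 had enough UMIs in Stroma. Between the regressed and the untreated tumor 2 of them were lower and 0 higher, with a median log2 ratio of -0.83 where all features had 0.14. Of all features 6.38% were lower and 13.2% higher. The most abundant of the list, the actin-binding caldesmon Cald1, stood at 562, 548 and 609 CPM in the 3 tumors, and the kinase Mylk that phosphorylates Myl9 at 148, 83.3 and 179. The 2 lower ones were the intermediate filament desmin (Des; 71.9, 27.1 and 39.5) and, named after its values were seen, the myosin phosphatase inhibitor Ppp1r14a (10.3, 4.05 and 5.91). Between the progressed and the untreated tumor 2 of 9 were lower (Lmod1 and Myh11, likewise named after the fact) and 0 higher, with a median of -0.72 against -0.06 for all features. Of all features 5.26% were lower and 3.23% higher. The 9 mural markers summed to 708, 524 and 670.5 CPM in Stroma. The part of mural cells in these values and in those of Acta2 and Tagln was not tested beyond the Rgs5 split, which is not a split by cell type.

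The general actin and myosin genes of Stroma differed little. Of 15, 1 was higher and 0 lower in the regressed tumor, with a median of -0.08, where 13.2% of features were higher and 6.38% lower. In the progressed against the untreated tumor 0 of 15 passed, where 3.23% of features were higher and 5.26% lower. Cytoplasmic actin Actb was at 2669, 3327 and 3191 CPM, Myl6 at 680, 814 and 864, and Tpm4 at 363, 334 and 546. The 1 higher gene, named after its values were seen, was Actg1, at 7.10, 31.6 and 8.75. In the progressed Tumor1 cells 2 of 12 were higher than in the untreated ones, Actn4 (267 and 560) and Cnn2 (104 and 267), both named after their values were seen, with 0 lower. Of all features there 5.41% were higher and 4.3% lower.

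Of the other matricellular and matrix genes of Stroma, 5 of 11 were lower and 0 higher in the regressed tumor, with a median log2 ratio of -0.97. Of all features 6.38% were lower and 13.2% higher, with a median of 0.14. Among them Ccn1, an integrin ligand and a target of YAP, stood at 359 CPM untreated and 54.6 regressed, a log2 ratio of -2.72 (-2.88 to -2.56), and fibronectin (Fn1) at 863 and 353, a log2 ratio of -1.29 (-1.35 to -1.22). In the progressed tumor Ccn1 was at 212 and Fn1 at 803 CPM. The other 3, named after their values were seen, were Thbs3, Ccn4 and Thbs4. The collagen-binding Sparc, the most abundant of the list, had 8682, 5124 and 7029 CPM. In the progressed against the untreated tumor 2 of 12 were lower (Thbs3, at -1.82, and Ccn5, at -1.51) and 0 higher, where 5.26% of features were lower and 3.23% higher. In Bloodvessel Fn1 had 329, 88.6 and 681 CPM, and in Tumor1 322, 59.6 and 85.7.

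The genes of factors that act on such promoters came from another list. Of the SRF, MRTF, YAP and TEAD genes, 1 of 8 was lower in the regressed Stroma cells (Tead2, 61.4 CPM untreated and 23.0 regressed) and 0 of 8 passed in the progressed against the untreated ones. Srf itself, named outside the rule, had 22.1, 15.3 and 34.9 CPM and Wwtr1, the gene of TAZ, 107, 67.1 and 131. Of 10 integrin and thrombospondin receptor genes, 1 was higher and 0 lower in the regressed Stroma cells and 1 was higher and 1 lower in the progressed ones. Beside both lists, 6.38% of all features were lower and 13.2% higher in the regressed Stroma cells. In the progressed ones 5.26% were lower and 3.23% higher. The scavenger receptor Cd36, named after its values were seen, was the higher one of the regressed cells and the lower one of the progressed cells, at 2.77, 5.60 and 1.25 CPM. The integrin subunit Itgb3, which with Itgav binds Postn and Thbs1, had 27.0, 48.3 and 62.8 CPM, a log2 ratio of 1.22 (1.05 to 1.39) in the progressed tumor. Cd47, a receptor of Thbs1, had 282, 396 and 317.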

How the data were processed

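Tumors were digested, cells were captured with the 10x Genomics Chromium 3' kit (v2), and per the labels and methods the authors mapped reads to GRCm38 with GSNAP, kept uniquely mapped reads in sense to exons, collapsed UMIs and clustered cells with Seurat 2.2.0. The annotation release is not given in the sources used here. The authors deposited UMI counts per feature and cell (1 table per tumor) and a table with each cell's cluster and totals. The count sums exceeded the deposited totals by 4.42% to 6.09%, for a reason that could not be traced.

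Here Entrez IDs were matched to symbols, UMIs were summed per cluster and tumor and divided by the sum of counts, giving UMIs per 1000000 (CPM). Levels have exact Poisson intervals, shares of cells exact binomial (Clopper-Pearson) ones, and log2 ratios exact conditional binomial ones, at 95%. Levels, lists and rules were computed in Python 3.11.15 with scipy 1.17.1, and TMM factors with edgeR 4.0.16, which was used for scaling only. With 1 tumor per group no test was run. The same code was checked on simulated counts. The 3 tumors were grouped by their titles. A further allele of the model is not reported here.

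The members, the gene lists and the cell groups were chosen with earlier results of these data known. All 9 members are named. From each list up to 4 genes with the most UMIs are named, and from the 2 sub-lists the 5 features of highest Pearson correlation with at least 200 UMIs. Genes named for passing the 2-fold rule beyond these are marked. Alternatives tried were TMM scaling, equal weight per cell, thinning to 1000 UMIs, the deposited totals, leaving out the top gene, the median of the members, shared clusters and other UMI minima. Chosen after seeing the data were clusters shared by 2 tumors, leaving out Stroma3 and Stroma6, leaving out the top cell, and leaving out cells with Rgs5.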

Additional observations from a re-analysis of the deposited data

Results flagged for a closer look

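Postn differed in direction between cell groups for the regressed against the untreated tumor: its log2 ratio was 1.38 in Bloodvessel and -1.0 in Stroma and -1.38 in Tumor1. The difference was not tested. The Bloodvessel levels rest on 14 and 10 UMIs and lie inside or below the leukocyte range, and under TMM scaling the Bloodvessel ratio was 1.18, with an interval that held 0 (-0.15 to 2.45).

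Tnc differed in direction for the progressed against the untreated tumor, with a log2 ratio of 2.48 in Bloodvessel and -1.33 in Stroma. This difference was not tested either. In Bloodvessel 14 of the 18 Tnc UMIs of the progressed tumor were in 1 cell, and without the top cell of each tumor the ratio was 1.17, with an interval from -0.96 to 2.96.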

How the results depend on the processing

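All values here are log2 ratios. Of the 39 ratios of single genes past 2-fold, 39 kept their direction with TMM scaling, 39 of 39 with the deposited totals, 37 of 37 with equal weight per cell and 27 of 30 after thinning to 1000 UMIs. The direction turned for Thbs1 in Bloodvessel, progressed against untreated (-0.18 after thinning and -0.17 without the top cell, in place of 1.25). The sign also changed for Tpm2 in Tumor1, progressed against regressed (-1.33 after thinning in place of 2.90, with 1 regressed UMI unthinned). It changed too for Tnc in Bloodvessel, regressed against untreated, which had not passed the 2-fold rule (0.11 and 0.13 in place of -2.14, with 1 regressed UMI). For these Tpm2 and Tnc values the regressed cells had 0 UMIs left, set to the floor of 3 UMIs. Their signs therefore give no direction. The contractile sum of Stroma, regressed against untreated (-0.72), became -0.96 with TMM scaling, -0.61 with equal weight per cell, -0.55 after thinning, -0.80 without Tpm1, -0.86 as the median of the genes, 0.013 over the clusters shared by 3 tumors, -0.59 without Stroma3 and Stroma6 and -0.63 without cells with Rgs5. Progressed against untreated (0.06) it became 0.12, 0.18 and 0.19 with TMM scaling, equal weight and thinning, -0.0044 as the median, -0.14 over the clusters shared by 3 tumors, -0.14 over those shared by 2 and 0.13 without cells with Rgs5. The matricellular sum of Stroma, regressed against untreated (-1.14), became -1.38, -0.92 and -1.0 with TMM scaling, equal weight and thinning, -1.26 without Thbs1, -1.0 as the median, -0.56 over the shared clusters and -0.94 without Stroma3 and Stroma6. Progressed against untreated (0.30) it became 0.36 and 0.40 with TMM scaling and equal weight, -0.45 without Thbs1, -0.30 as the median, 0.036 and 0.034 over the clusters shared by 3 and 2 tumors, 0.034 without Stroma3 and Stroma6 and 0.33 without cells with Rgs5. In Bloodvessel the contractile sum became -1.89 after thinning (from -0.13) for the regressed tumor and, for the progressed tumor, 1.56 without Tpm1 and 0.48 without the top cell (from 1.04). In Tumor1 the regressed against untreated contractile sum became -0.52 without Myl9 (from -1.12). The cause of these shifts was not tested, apart from the cells or genes each alternative leaves out. No paired analysis was possible because each condition has 1 tumor. For the same reason no replicate could be left out. Depth limits Bloodvessel and Tumor1 most, where a count of 0 allows up to 19.1 CPM in the progressed Bloodvessel cells and 19.9 in the regressed Tumor1 cells.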
